A study of Mus musculus with 4 samples.

Results

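A set of 10 genes of the late neutrophil programme was followed through 4 bulk RNA-seq libraries of mouse splenic CD24+ emergency progenitors (EPs). They comprise *Ltf*, *Lcn2*, *Ngp*, *Camp*, *Chil3*, *Cd177*, *Mmp8* and *Mmp9*, which encode proteins of the secondary and tertiary granules or of the neutrophil surface and cytoplasm, and the cytosolic S100 pair *S100a8* and *S100a9*. These 10 genes, of 40213 gene symbols in the count files, were chosen by symbol because their counts were higher in the libraries labelled cKO than in the WT libraries of this same comparison. Their difference between the groups is therefore given as a description, without a test.

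The study asked how TopBP1, a scaffold protein of DNA replication and of the DNA damage response, acts in dendritic cell development. EPs are CD11c+CD117+ cells that appear in the spleen when Flt3L is given in excess. The paper describes the XCR1−CD24+ EPs as precursors of the cDC1 subset of conventional dendritic cells. Its EP gate also holds XCR1+CD24+ cells, which it counts as cDC1. The WT group (2 libraries) came from TopBP1 fl/fl littermates, so the floxed allele was carried by both groups, and the cKO group (2 libraries) came from TopBP1 fl/fl mice with CD11c-cre. Every mouse was injected intraperitoneally with 10 μg of Flt3L-Ig (day 0, repeated on day 3), and splenic EPs were collected by sorting on day 9. CD11c-cre is driven from the promoter of the CD11c gene, so deletion starts in cells that already make CD11c. The study's methods state a range of age in weeks for all its mice together, and the labels give no age for a library. Nor do they say whether a library came from 1 mouse or from several, so the spread between libraries may be partly technical. Library totals were 14561583 and 15193831 counts for WT and 15148032 and 15093476 counts for cKO.

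The genes that define the sort were abundant in all libraries. *Itgax* (CD11c) had 8776 and 9285 counts in WT and 10511 and 10034 in cKO, *Kit* (CD117) had 6812 and 7181 against 6014 and 5916, and *Cd24a* had 13752 and 14001 against 13475 and 11686. *Topbp1* itself had 1102 and 1143 counts in the WT libraries, 773 in cKO replicate 1 and 1279 in cKO replicate 2. Its log2 fold change was −0.20 (SE 0.214, FDR 0.774, edgeR quasi-likelihood test), so the deleted gene was below the WT range in only 1 of the 2 libraries labelled cKO. Without cKO replicate 2 the value was −0.61 (FDR 0.0104), and without cKO replicate 1 it was 0.11 (FDR 0.576). The *Topbp1* counts are summed over the whole gene, so they do not by themselves measure loss of the floxed part. The paper compared TopBP1 expression of WT and cKO mice in splenic CD11c+ cells, which are not the cells of these libraries. cKO replicate 2 also stood apart across all genes. The chi-square per degree of freedom was 46.6 or 47 between it and the WT libraries and 38.5 between it and cKO replicate 1, whereas the other 3 pairs of libraries lay between 11.8 and 14.2. Counts are therefore given library by library for the genes described most fully, and the medians of the granulocyte, S100, receptor and family lists are given for each cKO library or with each left out.

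Neutrophils fill their granules in sequence as they mature. Primary (azurophil) granules with myeloperoxidase and the serine proteases are made first, at the promyelocyte stage, secondary (specific) granules with lactoferrin, lipocalin 2 and cathelicidin follow, and tertiary (gelatinase) granules come last, while S100A8 and S100A9 accumulate in the cytosol as the calcium- and zinc-binding dimer calprotectin. Transcription factors of the C/EBP and ETS families, among them C/EBPε and PU.1, drive these genes. Dendritic cell progenitors share a myeloid ancestry with granulocytes but are not known for making late granule proteins.

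The 250 bases before the transcription start of each member were searched for the letters TTGCNNAA (reverse complement TTNNGCAA), a C/EBP-type site, for GAGGAA, the core of a PU.1/ETS site, and for TATAA, each on both strands. RefSeq promoters of GRCm38.p6 were at hand for 9 of the 10 members. TTGCNNAA was found in 5 of the 9, those of *Lcn2*, *Ltf*, *Mmp8*, *Ngp* and *S100a9*, against 9.56% of all 32851 promoters. GAGGAA was found in 5 of the 9 (*Cd177*, *Lcn2*, *Ltf*, *Mmp8* and *S100a8*), against 23.3% of all promoters, and TATAA in 2 of the 9 (*Cd177* and *S100a8*), against 22.8%. The letters were chosen after the expression values were known, and a match is a stretch of letters, not a bound site. The stretches around the TTGCNNAA matches are shown because, of the motifs held by 5 members, this one was the rarer among all promoters. They are written 5′ to 3′ on the strand of the gene, with the matched bases in capitals.
Lcn2: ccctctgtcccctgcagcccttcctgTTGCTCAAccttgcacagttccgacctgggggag
Ltf: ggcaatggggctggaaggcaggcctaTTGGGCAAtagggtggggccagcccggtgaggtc
Mmp8: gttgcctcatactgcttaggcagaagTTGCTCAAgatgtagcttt
Ngp: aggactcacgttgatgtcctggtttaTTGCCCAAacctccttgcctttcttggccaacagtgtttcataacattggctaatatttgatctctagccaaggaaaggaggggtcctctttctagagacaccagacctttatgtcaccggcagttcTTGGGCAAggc
S100a9: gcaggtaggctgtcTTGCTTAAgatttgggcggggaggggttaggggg

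All 5 stretches lie upstream of the start site, outside the transcript, in GRCm38.p6. That of *Lcn2* is chr2:32387922-32387981 on the minus strand, that of *Ltf* chr9:111019191-111019250 on the plus strand, that of *Mmp8* chr9:7558384-7558428 on the plus strand, that of *Ngp* chr9:110419644-110419807 on the plus strand and that of *S100a9* chr3:90695924-90695971 on the minus strand. *Ngp* was the only one of these promoters with 2 matches, and its downstream match ends a few bases before the start. The matches of *Lcn2* and *Mmp8* have the same letters, as do the match of *Ltf* and the downstream match of *Ngp*.

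The 10 genes spanned from 78 counts (*Mmp8* in WT replicate 1) to 10753 counts (*Ngp* in cKO replicate 1), and each was higher in both cKO libraries than in both WT libraries, and each by a fold of mean CPM above 2 (CPM, counts scaled to the TMM effective library size). The median log2 fold change of the 10 was 1.49, against 0.008 over all 12393 genes tested. Of all genes tested, 22.8% had both cKO libraries above both WT libraries, 20.8% had both below, and 4% were higher by a fold over 2. The members were picked for this difference, so nothing is read from their count. The plot of CPM by library shows how closely the libraries of a group lay for the abundant genes and how far apart the 2 cKO libraries were for *Mmp8* and *Mmp9*.

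**Figure D1:**
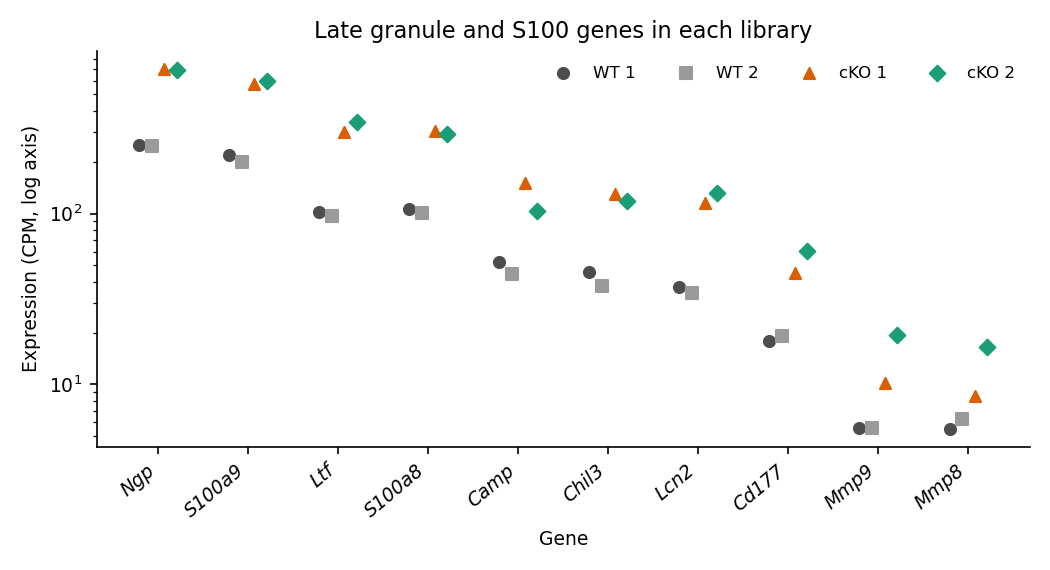
Expression of the 10 genes in each of the 4 libraries, in CPM on a log axis. Each point is 1 library (WT circles and squares, cKO triangles and diamonds), with *Ngp* highest and *Mmp9* and *Mmp8* lowest. For every gene both cKO points lie above both WT points, and the 2 cKO points are farthest apart for *Mmp8* and *Mmp9*.

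Among the iron- and siderophore-binding proteins of the secondary granule, *Ltf* (lactoferrin, which withholds iron from microbes) had 1446 and 1474 counts in WT and 4600 and 5315 in cKO. The WT libraries were nearly equal and cKO replicate 2 was the highest. Mean CPM was 99.9 ± 3.29 (SD, n = 2) in WT and 322.8 ± 29.5 in cKO, a log2 fold change of 1.69, and the 4 ratios of 1 cKO to 1 WT library ranged from 1.56 to 1.82 on the log2 scale. *Lcn2* (lipocalin 2, which binds bacterial siderophores) had 527 and 517 counts in WT and 1748 and 2049 in cKO, again with cKO replicate 2 highest and no overlap of the groups. Its log2 fold change of 1.79 was the highest of the 10 genes, with mean CPM of 35.7 ± 2.15 in WT and 124 ± 12.6 in cKO.

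The antimicrobial cathelin-family genes *Ngp* (neutrophilic granule protein) and *Camp* (the cathelicidin precursor) behaved differently between the cKO libraries. *Ngp*, the most abundant member by counts, had 3553 and 3758 counts in WT and 10753 and 10665 in cKO. The libraries of each group were almost superimposed, and the 4 log2 ratios spanned only 1.46 to 1.51. *Camp* had 741 and 668 counts in WT and 2288 and 1592 in cKO, and was the member with the clearest shortfall in cKO replicate 2, which lay 0.54 below cKO replicate 1 on the log2 scale. Its 4 ratios accordingly ran from 0.98 to 1.76, around a log2 fold change of 1.39. Mean CPM was 250 ± 1.72 in WT and 698 ± 11.4 in cKO for *Ngp*, and 48.3 ± 5.77 and 127 ± 33.4 for *Camp*.

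The calprotectin subunits kept a nearly fixed proportion. *S100a8* had 1502 and 1516 counts in WT and 4640 and 4535 in cKO, and *S100a9* had 3131 and 3014 in WT and 8777 and 9196 in cKO. In each gene the 2 libraries of a group lay close together and far from the other group. The log2 fold changes were 1.53 for *S100a8*, with ratios from 1.47 up to 1.6, and 1.48 for *S100a9*, with ratios from 1.38 to 1.58. The ratio of *S100a8* to *S100a9* counts was 0.48 and 0.503 in WT and 0.529 and 0.493 in cKO, and thus overlapped between the groups. Mean CPM of *S100a9* was 210 ± 15.4 in WT and 585 ± 13.2 in cKO, and that of *S100a8* was 103 ± 4.13 and 299 ± 7.98.

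*Chil3* (Ym1, a chitinase-like lectin of myeloid cells) had 646 and 566 counts in WT and 1996 and 1847 in cKO, a log2 fold change of 1.59. The groups did not overlap, and its WT libraries were the farthest apart of the 10 genes, with a log2 ratio of −0.29 of WT replicate 2 to WT replicate 1. *Chil3* is nearly identical in sequence to *Chil4*, which had 1, 0, 1 and 0 counts in WT replicates 1 and 2 and cKO replicates 1 and 2. How reads that fit both genes were shared out is not given in the sources used here, so the split between them is uncertain. *Cd177*, a surface glycoprotein of neutrophils, had 255 and 291 counts in WT and 681 and 933 in cKO, with cKO replicate 2 the higher and a log2 fold change of 1.49.

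The matrix metalloproteinase genes were the least abundant members and the least even. *Mmp8* (neutrophil collagenase, of secondary granules) had 78 and 95 counts in WT and 131 and 257 in cKO. *Mmp9* (gelatinase B, the defining enzyme of tertiary granules) had 79 and 84 counts in WT and 155 and 302 in cKO. For both genes cKO replicate 2 was well above cKO replicate 1, with a log2 ratio of 0.95 for *Mmp8* and 0.94 for *Mmp9*, while the groups still did not overlap. The log2 fold changes were 1.09 for *Mmp8* and 1.41 for *Mmp9*. Without cKO replicate 2 they were 0.53 and 0.86, both still above 0.

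Levels of different genes were compared per kb of the longest transcript, in mean CPM per kb. On this scale *S100a9* was highest, at 405 in WT and 1130 in cKO, followed by *S100a8* at 212 and 615 and *Ngp* at 204 and 571. *S100a8* and *Ngp* lay close together, at 218 and 206 against 205 and 203 in the WT libraries and at 627 and 603 against 578 and 564 in the cKO libraries, without overlap in either group. *Camp* (63.7 and 167), *Lcn2* (39 and 135), *Ltf* (36.4 and 118) and *Chil3* (27 and 81.4) formed the middle of the order. The lowest levels per kb were those of *Cd177* (6.87 and 19.4), *Mmp8* (2.43 and 5.2) and *Mmp9* (1.75 and 4.68). In cKO the libraries of *Camp* (198 and 136 CPM per kb) overlapped those of *Lcn2* (125 and 145), which met those of *Ltf* (110 and 125), and *Mmp8* (3.55 and 6.85) overlapped *Mmp9* (3.2 and 6.15). In WT none of these neighbours overlapped.

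Together the members held 0.0821% and 0.0789% of all counts in WT and 0.236% and 0.243% in cKO, with summed CPM of 845 and 792.8 against 2348 and 2373, a 2.88-fold difference of the means. The make-up of this sum was similar in the 4 libraries for the abundant genes. *Ngp* contributed between 29.1% and 31.4% of it in every library, *S100a9* between 24.5% and 26.2%, and *S100a8* between 12.4% and 13%. *Ltf* held from 12.1% to 14.5%. *Camp* held 6.2% and 5.57% in WT, 6.4% in cKO replicate 1 and 4.34% in cKO replicate 2. In relative terms the shares of the rare genes varied most, from 0.366% to 0.793% for *Mmp8* and from 0.433% to 0.823% for *Mmp9*. In the ranking of all genes by CPM, *Ngp* stood at 706 and 697 in the WT libraries and at 155 and 141 in the cKO libraries, while *Mmp9* stood at 9373 and 9414 against 8383 and 6816.

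**Figure D2:**
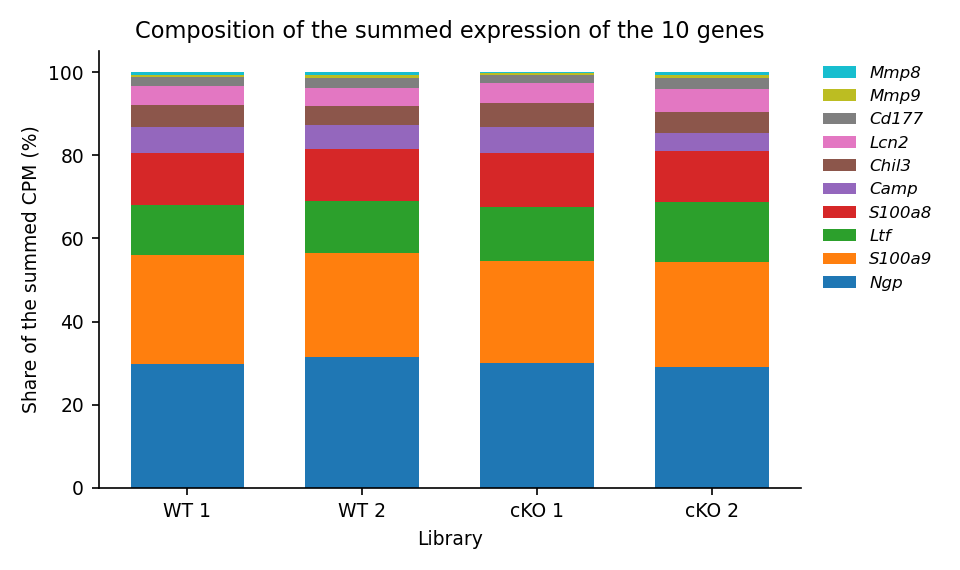
Share of each of the 10 genes in their summed CPM, in percent, for each library (1 stacked bar per library). *Ngp* and *S100a9* are the largest shares of every bar, and the bars of WT and cKO libraries differ little although the sum behind them was 845 and 792.8 CPM in WT and 2348 and 2373 CPM in cKO.

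At the level of transcripts, 7 members had a single RefSeq transcript in the files. The main of the 2 *S100a9* transcripts held 84.2% and 86.4% of its counts in WT and 83.5% and 81.4% in cKO, so both transcripts were higher together. *Cd177* was the exception. Its curated transcript held 83.9% and 62.2% of the counts in WT, 35.1% in cKO replicate 1 and 68.7% in cKO replicate 2, and a predicted transcript held the rest. The predicted transcript had 41 and 110 counts in WT and 442 and 292 in cKO. Overlapping transcripts share reads, so these shares depend on how the reads were assigned, and the log2 fold change of the curated *Cd177* transcript alone was 1.02 on the log2(CPM + 1) scale.

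Other genes of the late granules and secretory vesicles, which the choice of the 10 had left out, were tested with the edgeR quasi-likelihood test over all 12393 genes. At FDR < 0.05, 0.0807% of all genes were higher in cKO and 0.0242% were lower, and at an unadjusted P under 0.05 the shares were 6.95% and 3.77%. Of 20 listed genes 17 had counts enough to be tested. None reached FDR < 0.05 in edgeR and 4 did so in the DESeq2 Wald test, in which 0.882% of all genes were higher and 0.28% lower. At an unadjusted P under 0.05 in edgeR 9 were higher and none was lower. Their median log2 fold change was 0.71, 14 of the 17 had a positive value, and 10 had both cKO libraries above both WT libraries. The median against the WT mean was 0.73 in cKO replicate 1 and 0.56 in cKO replicate 2. With a single cKO library in the fit, which assumes that this library varies like the WT pair, 6 genes were higher at FDR < 0.05 without cKO replicate 2 and 8 were so without cKO replicate 1. The fit without cKO replicate 2 called 1.11% of all genes higher and 0.633% lower, and the fit without cKO replicate 1 called 11.2% higher and 9.33% lower. *Cybb*, *Itgam*, *Abca13*, *Ceacam1* and *Hp* were called in both of these fits. With 2 libraries against 2 an exact permutation test can give no P below 0.333 for a single gene.

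Within this list the highest log2 fold changes were those of *Olfm4* and *Itgam*. *Olfm4* (olfactomedin 4, a glycoprotein of a subset of specific granules) had 24 and 22 counts in WT and 70 and 102 in cKO, with a log2 fold change of 1.82 (SE 0.345, unadjusted P = 0.000858, FDR 0.247, edgeR). *Itgam* (CD11b, the integrin chain stored in granules and shown on activated neutrophils) had 305 and 253 counts in WT and 672 and 1201 in cKO, with 1.67 (SE 0.271, FDR 0.153, edgeR). For both genes the groups did not overlap and cKO replicate 2 was higher. *Cybb*, the catalytic chain of the NADPH oxidase, had 1422 and 1528 counts in WT and 2322 and 2914 in cKO, whereas its partner *Cyba* had 2094 and 2505 in WT and 2712 and 2031 in cKO, with log2 fold changes of 0.76 and −0.02. *Hp* (haptoglobin) had 323 and 277 counts in WT and 621 and 479 in cKO, and *Pglyrp1* (a peptidoglycan recognition protein of granules) had 270 and 320 against 614 and 395. Other abundant genes of the list had log2 fold changes of 0.20 (*Lyz2*, lysozyme), 0.24 (*Itgb2*, the common β2 integrin chain), 0.00 (*Anxa1*) and 0.04 (*Adam8*). The value of *Itgb2* was −0.04 without cKO replicate 2 and 0.47 (FDR 0.0036) without cKO replicate 1. The summed CPM of the list, in which *Itgb2* was the most abundant gene, was 1507 and 1441 in WT and 1701 and 1796 in cKO.

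Genes of maturing neutrophils were examined next. Of 23 listed genes 22 were in the files and 19 were tested. None reached FDR < 0.05 in edgeR and 1 did so in DESeq2, while 10 were higher and none was lower at an unadjusted P under 0.05. Their median log2 fold change was 0.83, with 0.88 for cKO replicate 1 and 0.66 for cKO replicate 2, and in 14 of the 19 the cKO libraries both lay above the WT libraries. Without cKO replicate 2, 4 genes were higher at FDR < 0.05 (1.11% of all genes), and without cKO replicate 1, 8 were (11.2% of all genes), with *Csf3r*, *Retnlg*, *Mcemp1* and *Wfdc21* in both. *Ly6g*, the classical surface marker of mouse neutrophils, had only 16 and 13 counts in WT and 49 and 67 in cKO (log2 fold change 1.92, SE 0.398, FDR 0.307, edgeR). *Cxcr2*, the receptor that draws mature neutrophils out of the marrow, had 45 and 42 counts in WT and 98 and 131 in cKO, and *Csf3r*, the G-CSF receptor, had 174 and 176 against 323 and 282. *Retnlg* (resistin-like γ) had 76 and 64 counts in WT and 162 and 200 in cKO, and *Padi4*, which citrullinates histones, had 28 and 39 against 83 and 128. The defining markers *Ly6g*, *Cxcr2* and *Csf3r* were thus above 0 in every library and higher in both cKO libraries.

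The summed CPM of the mature neutrophil list was 246.8 and 202 in WT and 262.8 and 279.5 in cKO. Neutrophil markers were thus higher together with the members in both cKO libraries. The paper reports a larger splenic neutrophil population in cKO than in WT mice, and intermediate CD11c on some splenic neutrophils. It does not say whether those mice were given Flt3L. The part of neutrophils carried through the sort in the difference was not tested. In bulk RNA, a different number of cells of a type and a different amount of RNA per cell cannot be told apart.

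Of the 10 tested primary granule genes, which precede the late genes in the neutrophil lineage, 9 were above the WT mean in cKO replicate 1 and 3 were above it in cKO replicate 2. *Mpo* (myeloperoxidase) had 8464 and 6391 counts in WT, 13311 in cKO replicate 1 and 3014 in cKO replicate 2, so that the WT libraries lay between the cKO libraries. The same order was seen for *Elane* (neutrophil elastase), with 1392 and 993 in WT and 1973 and 529 in cKO, and for *Prtn3* (proteinase 3), with 701 and 579 in WT and 1212 and 254 in cKO. *Serpinb1a*, *Fcnb* and *Ctsc* were above the WT mean in both cKO libraries. The list held 11 genes, and none of the 10 tested reached FDR < 0.05 in edgeR or in DESeq2. At an unadjusted P under 0.05 only *Serpinb1a*, an inhibitor of neutrophil serine proteases, was higher (log2 fold change 0.97, SE 0.236, unadjusted P = 0.00365, FDR 0.307). The median of the list was 0.16, made of 0.81 in cKO replicate 1 and −0.63 in cKO replicate 2. Without cKO replicate 2, 7 genes were higher at FDR < 0.05 (1.11% of all genes). Without cKO replicate 1, 1 was higher and 5 were lower (11.2% and 9.33% of all genes).

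The proportion between late and primary granule transcripts differed between the 2 cKO libraries. The members' summed CPM over that of the primary granule list was 0.711 and 0.891 in WT, 1.52 in cKO replicate 1 and 3.94 in cKO replicate 2, and the ratio of *Ltf* to *Mpo* counts was 0.171 and 0.231 in WT, 0.346 in cKO replicate 1 and 1.76 in cKO replicate 2. The numerators were chosen for being higher in cKO, so nothing is read from the difference between the groups. The ratio of *Ngp* to *S100a9* counts, between 2 late genes, was 1.13 and 1.25 in WT and 1.23 and 1.16 in cKO.

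**Figure D3:**
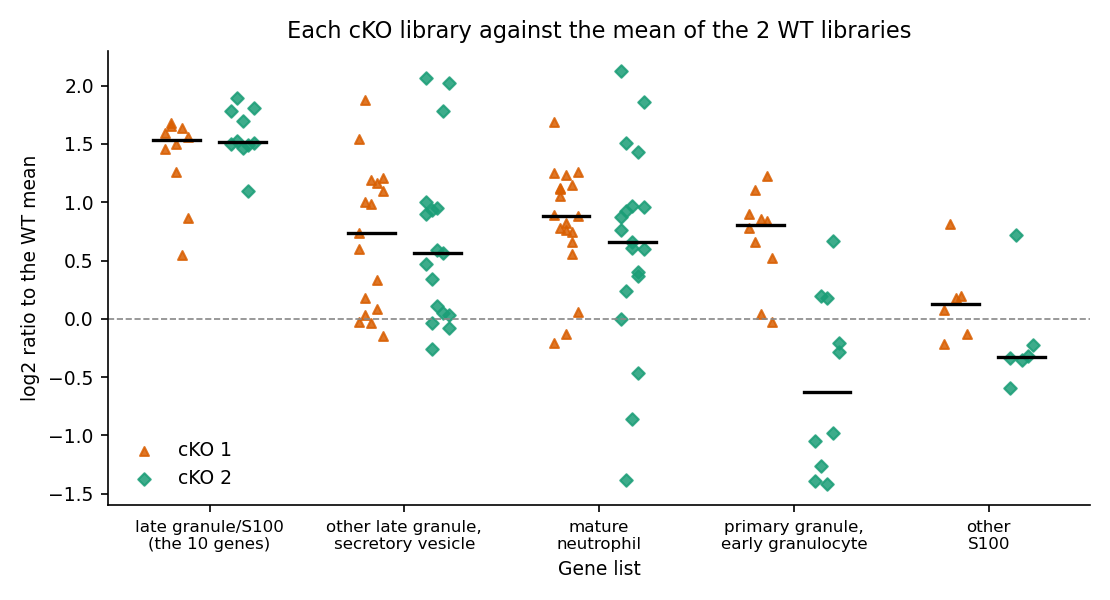
Log2 ratio of each cKO library to the mean of the 2 WT libraries for the genes of 5 lists. Each point is 1 tested gene and each bar is the list's median. The 10 late granule and S100 genes, chosen for this difference, have medians of 1.53 and 1.52 in the cKO libraries, whereas the medians of the primary granule list are 0.81 in cKO replicate 1 and −0.63 in cKO replicate 2.

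Among the transcription factors of granulocyte development, values lay closer to 0. All 10 listed factors were tested and none reached FDR < 0.05 in edgeR or DESeq2 or an unadjusted P under 0.05 in edgeR, with a median log2 fold change of 0.08, which was 0.28 without cKO replicate 2 and −0.01 without cKO replicate 1. *Cebpe*, which is required for secondary granule genes, had 71 and 66 counts in WT and 140 and 88 in cKO (log2 fold change 0.67, SE 0.305, unadjusted P = 0.0625, FDR 0.495). *Cebpa*, which starts granulocyte commitment, had 455 and 478 counts in WT and 463 and 291 in cKO, and *Gfi1*, a repressor that favours neutrophils over monocytes, had 45 and 43 against 69 and 19. *Spi1* (PU.1) was abundant and overlapped between the groups, with 3530 and 4179 counts in WT and 4430 and 3940 in cKO. Without cKO replicate 1, *Cebpa* was lower at FDR < 0.05 (0.00141).

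Within the S100 family, *S100a8* and *S100a9* stood beside 14 other listed genes, of which 6 were tested and 8 had at most 3 counts in any library. *S100a4*, a calcium-binding protein of motile cells, had 382 and 407 counts in WT and 720 and 688 in cKO. Its log2 fold change of 0.77 (SE 0.133, unadjusted P = 0.000506, FDR 0.196, edgeR) missed the threshold in edgeR, while it was the 1 gene of the list called in DESeq2, and it was called when either cKO library was left out (FDR 0.000809 without replicate 1 and 0.0018 without replicate 2). The other 5 lay between −0.39 (*S100a1*) and −0.04 (*S100a10*), so 1 of the 6 had a positive and 5 a negative value, with a median of −0.09. This direction rested on cKO replicate 2: the median was 0.12 without it and −0.33 without cKO replicate 1, and *S100a6*, *S100a10* and *S100a13* had values of 0.17, 0.19 and 0.07 without cKO replicate 2. *S100a6*, which lies beyond *S100a7a* on the other side of *S100a8* from *S100a9*, had 912 and 1138 counts in WT and 1207 and 844 in cKO, and *S100a7a* had none.

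**Figure D4:**
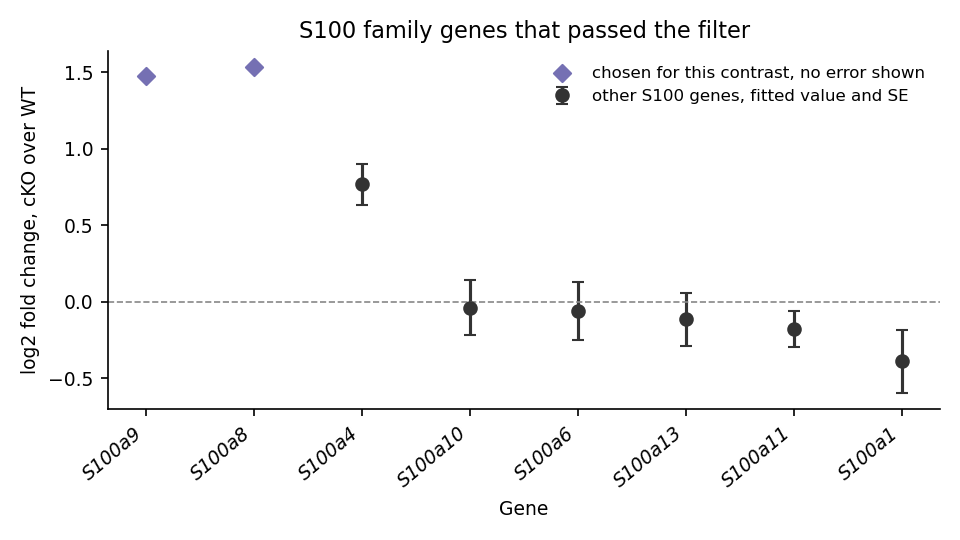
Log2 fold change (cKO over WT) of the S100 genes abundant enough to be tested. Circles with bars are fitted values with their SE for genes outside the chosen set, and diamonds are *S100a8* and *S100a9*, which were chosen for this contrast and carry no error bar. *S100a4* stands at 0.77 and the other 5 genes between −0.39 and −0.04, of which *S100a6*, *S100a10* and *S100a13* are above 0 without cKO replicate 2.

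Receptors, partners and inhibitors of the members' proteins were listed for the same comparison. Of 16 genes 10 were tested, none reached FDR < 0.05 in edgeR or DESeq2, and at an unadjusted P under 0.05 1 was higher and 1 was lower. The median log2 fold change was −0.02, against −0.04 without cKO replicate 2 and −0.01 without cKO replicate 1. The higher gene was *Fpr2*, a formyl peptide receptor that also binds the cathelicidin peptide, with 32 and 23 counts in WT and 59 and 61 in cKO (log2 fold change 1.05, SE 0.353, unadjusted P = 0.0188, FDR 0.364). The lower gene was *Cd36*, a scavenger receptor, with 3102 and 3014 against 2713 and 2590 (−0.28, SE 0.118, unadjusted P = 0.0484, FDR 0.464). *Tlr4* and *Ager*, the main receptors of extracellular calprotectin, had log2 fold changes of 0.01 and −0.20, and *Bsg*, another S100A9 receptor, had −0.17. The lipocalin 2 receptor *Slc22a17* had 2 and 6 counts in WT and 3 and 3 in cKO, and *Timp1*, the main inhibitor of MMP-9, had 0 and 2 against 1 and 0, too few for a test.

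Relatives of the members by family were mostly at low counts. Of 13 listed genes 6 were tested, with a median log2 fold change of 0.05, which was −0.09 without cKO replicate 2 and 0.31 without cKO replicate 1. No gene reached FDR < 0.05 in edgeR, and 1, *Chil1*, did so in DESeq2 and had an unadjusted P under 0.05 in edgeR. *Chil1*, a chitinase-like protein of neutrophil specific granules and macrophages, had 42 and 42 counts in WT and 125 and 145 in cKO (log2 fold change 1.61, SE 0.259, unadjusted P = 0.000305, FDR 0.151, edgeR). The transferrin gene *Trf*, a relative of lactoferrin, had 3021 and 2708 counts in WT and 3047 and 1653 in cKO, and *Mmp19* had 152 and 111 against 97 and 96, with log2 fold changes of −0.36 and −0.52. The value of *Trf* was 0.02 without cKO replicate 2 and −0.88 (FDR 6.98e-05) without cKO replicate 1.

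The genes whose profile over the 4 libraries was most like the mean of the members were sought among 9664 genes with at least 5 CPM on average, by the root mean square distance of centred log2(CPM + 1) values. This is a description over 4 libraries, without a test, and the distances of the members themselves ran from 0.059 (*S100a9*) to 0.367 (*Mmp8*). The members were chosen for being higher in cKO, so genes near their mean profile are higher in cKO by construction. *Chil1*, *Retnlg*, *Cxcr2*, *Abca13*, *Itgb2l* and *Pidd1* had means below 5 CPM in WT and passed the limit only through the cKO libraries. Nothing is therefore read from which genes were nearest. The nearest gene was *Chil1* (distance 0.052), followed by *Retnlg* (0.17), *Cxcr2* (0.192), *Abca13* (0.201), *Pram1* and *Itgb2l* (both 0.207), *Pidd1* (0.22), *E2f2* (0.225), *Itgam* (0.248) and *Fgr* (0.249). *Itgb2l*, an integrin β chain of the same family as CD18, had 33 and 50 counts in WT and 163 and 188 in cKO. *Pram1*, an adaptor of myeloid cells, had 88 and 97 counts in WT and 206 and 225 in cKO, and *Fgr*, a Src-family kinase of myeloid cells, had 398 and 519 against 934 and 1021. *E2f2*, an activator of S-phase genes, had 201 and 240 counts in WT and 423 and 574 in cKO.

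*Camp*, *Ngp*, *Ltf* and *Mmp8* lie on chromosome 9, *Lcn2* and *Mmp9* on chromosome 2, *S100a8*, *S100a9* and *Chil3* on chromosome 3, and *Cd177* on chromosome 7. *S100a8* and *S100a9* are immediate neighbours. Of the 36 protein-coding genes within 2 places on either side of a member in the RefSeq order of GRCm38.p6, 17 were tested. None reached FDR < 0.05 in edgeR or DESeq2, 1 was higher (*Cdc25a*) and 1 lower (*Lrrfip2*) at an unadjusted P under 0.05, and their median log2 fold change was −0.06.

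Markers of other cells that the sort could hold were examined beside the members. Of 5 basophil and mast cell genes 4 had both cKO libraries above both WT libraries, and their summed CPM was 21.8 and 21.1 in WT, 71.9 in cKO replicate 1 and 36.4 in cKO replicate 2. *Mcpt8*, a basophil protease, had 62 and 83 counts in WT and 316 and 213 in cKO (log2 fold change 1.80, SE 0.27, unadjusted P = 0.000189, FDR 0.106, edgeR), and the most abundant gene, *Prss34*, had 122 and 123 against 457 and 185. None of the 5 reached FDR < 0.05 in edgeR, 2 did so in DESeq2 (*Mcpt8* and *Prss34*), and 4 had an unadjusted P under 0.05 in edgeR. Eosinophil genes (4 listed, 3 tested) had summed CPM of 105 and 87.8 in WT, 221 in cKO replicate 1 and 36.3 in cKO replicate 2, and *Prg2* (major basic protein) had 1044 and 938 counts against 2217 and 333. No defining marker of either list was at 0 in any library, but some were at few counts. *Ccr3* had 4 and 5 counts in WT and 4 and 2 in cKO, too few for a test. *Siglecf* had 19 and 14 against 32 and 18, and *Fcer1a* had 12 and 12 against 49 and 28.

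The median log2 fold change of the monocyte genes (6 of 6 tested) was 0.14, and their summed CPM was 721.6 and 693.2 in WT and 824.8 and 651.7 in cKO, with *Ccr2* the most abundant. Of these *Csf1r* alone had an unadjusted P under 0.05 in edgeR (0.59, SE 0.158, FDR 0.309), with 275 and 342 counts in WT and 456 and 517 in cKO. Macrophage genes (6 of 8 tested, 2 lower at an unadjusted P under 0.05) had summed CPM of 30.1 and 32.8 in WT and 22.3 and 25.4 in cKO with *Hmox1* the most abundant. None of these genes, nor of the lymphoid, pDC, erythroid and megakaryocyte lists, reached FDR < 0.05 in edgeR or DESeq2. Summed CPM was 30.3 and 25.6 against 35.2 and 30.5 for B cell genes, 2.05 and 1.32 against 5.78 and 2.39 for T cell genes, 9.47 and 7.87 against 17.9 and 7.50 for NK cell genes, 201 and 206 against 169 and 164 for pDC genes, 16 and 13.1 against 18.1 and 18.5 for erythroid genes and 4.24 and 3.90 against 8.73 and 4.33 for megakaryocyte and platelet genes. *Pf4*, *Ppbp*, *Gp1ba* and *Gp9*, which define the platelet lineage, were each at 0 in at least 1 library and at most at 5 counts in any. The cDC1 genes (7 of 7 tested) each had a log2 fold change below 0, with a median of −0.18, none at FDR < 0.05 in edgeR or DESeq2, 1 (*Cadm1*) lower at an unadjusted P under 0.05 and summed CPM of 4504 and 4724 in WT and 4286 and 3786 in cKO.

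The state of the libraries also differed. Summed CPM of 6 cell cycle genes was 370 and 357.5 in WT, 454.6 in cKO replicate 1 and 1339 in cKO replicate 2, and that of 6 immediate early and heat shock genes was 4764 and 4181 in WT, 3187 in cKO replicate 1 and 1515 in cKO replicate 2. None of the cell cycle genes reached FDR < 0.05 in edgeR, all 6 had an unadjusted P under 0.05, and 2 (*Cdk1* and *Birc5*) were called higher in DESeq2. *Fosb* had 4684 and 5236 counts in WT and 2698 and 2531 in cKO and fell by 0.99 on the log2 scale (SE 0.117, FDR 0.0421, edgeR), and 3 of the 6 immediate early and heat shock genes were called lower in DESeq2. *Xist* was abundant in all libraries and the 4 Y-linked genes examined had at most 1 count. Mitochondrial rRNA took 1.32% and 0.727% of counts in WT and 0.920% and 1.36% in cKO, so that its range overlapped between the groups. The median log2 fold change of the cell cycle genes was 0.36 without cKO replicate 2 and 1.87 without cKO replicate 1. The part of these cell types and states in the difference of the 10 genes was not tested.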

How the data were processed

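Counts were deposited by the authors as whole numbers of reads per RefSeq transcript, without normalization, 1 file per library. The submitters' processing notes name fastp, STAR, Salmon and GATK, without versions or roles, and the build GRCm39. If Salmon made the counts, they are rounded estimates. Use of molecular identifiers is not given in the sources used here. The labels name RNAiso Plus for the RNA and the CORALL RNA-seq V2 kit, whereas the paper's methods name an RNeasy kit. Rows without an accession held at most 4.86% of a library's counts.

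The 137259 transcripts were summed to 40213 symbols. Of these, 19815 had a count and 12393 passed filterByExpr and were tested with edgeR 4.0.16 (R 4.3.3; TMM, glmQLFit, glmQLFTest, Benjamini–Hochberg adjustment over all genes tested). SEs were derived from the fitted log2 fold change and its F statistic. The biological coefficient of variation was 15.2%. The test was checked on simulated counts with large changes, the same dispersion for every gene and libraries alike within a group. In the data cKO replicate 2 stood apart, so this check does not show how the test performs here. No 2 libraries were duplicates. The members and all gene lists were chosen with earlier results of these data known, so the lists are described by counts and medians and are not independent evidence. Named genes were the 10 members, *Topbp1*, genes of the lists and the 10 genes nearest to the members' mean profile. The neighbours *Cdc25a* and *Lrrfip2* and the motifs were chosen after values were seen. Alternatives were RLE factors, the DESeq2 1.42.0 Wald test, no filter, at least 10 counts in every library, a replicate block, leaving out each library, the most abundant transcript and a pseudocount of 1 CPM. Gene order and promoters came from RefSeq on GRCm38.p6, another build than that of the files, and transcript lengths from GENCODE M21.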

Additional observations from a re-analysis of the deposited data

How the results depend on the processing

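Each of the 10 members had a higher level in cKO under all 11 alternatives, with log2 fold changes from 0.534 (*Mmp8* without cKO replicate 2) to 1.89. Their median ran from 1.453 to 1.535 with 1 library left out. The log2 fold change of *Topbp1* ran from −0.605 without cKO replicate 2 to 0.106 without cKO replicate 1, and so changed sign. Counts of genes at FDR < 0.05 were far less stable. Over all genes, 10 were higher and 3 lower in edgeR with TMM, against 107 and 34 with the DESeq2 Wald test, and 16 higher without a filter on low counts. With 1 library left out, from 1 to 1432 genes were higher and from 0 to 1193 lower, the largest numbers without cKO replicate 1 and the smallest without WT replicate 2. The cause was not tested. Same-numbered libraries did not deviate together across genes (correlation −0.046). With 2 libraries in each group this value cannot show whether same-numbered libraries were prepared together. With the replicate block 395 genes were higher and 109 lower, among them 7 other late granule genes, 6 mature neutrophil genes and 1 gene each of the primary granule, other S100 and family relative lists. In DESeq2 the calls higher in cKO included 4 other late granule genes and 1 gene each of the mature neutrophil, other S100 and family relative lists. With 1 library left out, genes called higher ran from 0 to 8 for the other late granule and mature neutrophil lists, from 0 to 7 for primary granule genes, and from 0 to 1 for the other S100, family relative and receptor lists. Genes called lower ran from 0 to 5 for primary granule genes and from 0 to 1 for the other S100, family relative and transcription factor lists. RLE factors and the filter of at least 10 counts moved none of these counts by over 1.5 times. Depth limits the low genes most, as *Mmp8*, *Mmp9* and *Ly6g* rested on 13 to 302 counts per library.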
